A study of Mus musculus with 2 samples.

Results

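The cAMP-side phosphodiesterase (PDE) genes described here were *Pde3b*, *Pde4a*, *Pde4b*, *Pde4c*, *Pde4d*, *Pde7a*, *Pde7b*, *Pde8a* and *Pde8b*, which are families 4, 7 and 8 together with *Pde3b*. They were chosen by name and make up 9 of the 31053 genes in the deposited tables. Their mRNA was measured by scRNA-seq in primary VSMCs from the thoracic aortae of untreated wildtype mice on a C57BL6/N background, grown in full medium for 5 days. The aortae of several animals were pooled per preparation, the age of these animals was not given, and 1 library was made from each of 2 biological replicates. Culture shifts aortic VSMCs from a contractile toward a modulated phenotype, and the comparisons ask in which of the coexisting phenotypes each cAMP PDE was found.

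cAMP acts through protein kinase A (PKA) and the exchange factors EPAC1 and EPAC2, among other effectors. It relaxes VSMCs and restrains their growth, and in endothelial cells (ECs) it tightens the cell barrier. PDEs end the signal by hydrolyzing cAMP to AMP, and each family does so with its own regulation and at its own place in the cell. PDE3B accepts cAMP and is held back by cGMP, the PDE4 enzymes are specific for cAMP and are activated by PKA, and the PDE7 and PDE8 enzymes are specific for cAMP with a high affinity for it.

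All 9 genes encode a catalytic domain with the metal-binding signature of the class I PDEs. In-frame windows of 30 bases around this signature are shown for 6 of the genes, to show what the family members share although their mRNA levels differed. The windows were read from the longest coding sequence of each gene in the GENCODE M21 annotation of GRCm38, are written 5′ to 3′ on the strand of the gene, and lie within 1 coding exon each. Capitals mark the codons of the signature that are fixed in the search.
Pde3b, chr7:114526918-114526947, plus strand: atgCACGATtacgatCACCCAGGAagaaca
Pde4a, chr9:21204372-21204401, plus strand: atcCATGACgtggacCACCCTGGCgtctcc
Pde4b, chr4:102599691-102599720, plus strand: atcCATGATgtcgatCATCCTGGAgtctcc
Pde4d, chr13:109939310-109939339, plus strand: ataCATGATgtggacCATCCTGGGgtgtca
Pde7b, chr10:20434513-20434542, minus strand: gctCATGACgtggacCACCCAGGGgtcaac
Pde8a, chr7:81324064-81324093, plus strand: gtcCATGACgtggatCACCCTGGGagaacc
Each of the 9 coding sequences held the signature once. The windows of *Pde8a* and *Pde8b* were identical at 26 of 30 bases, those of *Pde4b* and *Pde4d* at 24 of 30, and those of *Pde3b* and *Pde7b* at 15 of 30. The *Pde4b* window lies in exon 13 of 17 and the *Pde4d* window in exon 11 of 15 of the transcripts used. UMIs of this assay tag the 3′ end of an mRNA, so that the values below were not split by isoform.

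*Pde4b* spans 519.7 kb (chr4:102087543-102607259, plus strand, 13 annotated transcripts) and *Pde4d* spans 1503.5 kb (chr13:108449948-109953461, plus strand, 20 annotated transcripts). *Pde3b* lies at chr7:114415281-114539251 and *Pde8a* at chr7:81213596-81334533, both on the plus strand, and *Pde4a* at chr9:21165714-21213248, also on the plus strand. *Pde7b* (chr10:20398004-20725078), *Pde7a* (chr3:19223108-19311322) and *Pde8b* (chr13:95024454-95250336) are on the minus strand. An exon of *Pde7a* overlaps the antisense gene *Gm16093*, and an exon of *Pde8b* overlaps *Gm48420*. No exon of the other 7 genes overlaps another gene of the tables.

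Barcodes counted as cells held 300 genes and 3000 UMIs or more, with mitochondrial transcripts below 20% of the UMIs, and these cells were compared in 4 classes that share no cell. *Myh11*, the smooth muscle myosin heavy chain, set apart *Myh11*-high cells (at least 5 UMIs, 313 cells in replicate 1 and 574 in replicate 2) from *Myh11*-low cells (at most 1 UMI, 2771 and 4152 cells). Cycling cells had at least 6 UMIs of *Mki67*, *Top2a* and *Cenpf* together (1450 and 1651 cells), and ECs had at least 2 UMIs in 2 of *Pecam1*, *Cdh5*, *Cldn5* and *Gja4* (102 and 141 cells). The libraries summed to 127949633 and 132561822 UMIs, and the median UMI count per cell was 23754 and 18463 in *Myh11*-high cells, 19734 and 14544.5 in *Myh11*-low cells, 28598 and 21108 in cycling cells, and 14629 and 10250 in ECs. Contractile and endothelial markers that the class rules did not use went with the labels: 6 contractile markers other than *Myh11* summed to 24098 and 25852 UMIs per 1000000 UMIs (CPM) in *Myh11*-high cells against 6159 and 3383 CPM in *Myh11*-low cells, and 3 endothelial markers outside the rule, *Kdr* among them, to 419 and 343 CPM in ECs against at most 1.07 CPM in the other classes. Of 5 modulated markers, *Lum*, *Pdgfra*, *S100a4* and *Dcn* were higher in *Myh11*-low than in *Myh11*-high cells in both libraries. The other, *Col3a1*, was lower there, at 730 and 428 CPM against 753 and 741 CPM. The 2 libraries share 9 cell barcodes. Levels are CPM from the summed UMIs of a class in 1 library, and an SD is over both libraries.

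The 9 genes were low in the SMCs of these cultures, and ECs had the most. Their summed level was 86.5 CPM in replicate 1 and 60.1 CPM in replicate 2 in *Myh11*-high cells, 81.0 and 73.3 CPM in *Myh11*-low cells, and 94.7 and 84.3 CPM in cycling cells. In ECs it was 227 and 210 CPM. The range of *Myh11*-high cells included that of *Myh11*-low cells and overlapped that of cycling cells, and the EC sums lay above all others. *Pde4b* gave 52.5% and 48.8% of the members' UMIs in ECs, against 35.1% and 20.5% in *Myh11*-high cells. *Pde4a* gave 18.5% and 29.5% in *Myh11*-high cells and 5.38% and 5.99% in ECs. *Pde3a*, the other gene of family 3, is not among the 9 and not in these sums. Its level was 98.7 and 64.0 CPM in *Myh11*-high cells, 89.8 and 80.0 CPM in *Myh11*-low cells, and 56.8 and 57.7 CPM in cycling cells. In ECs *Pde3a* was at 83.1 and 117 CPM, a range that overlapped those of *Myh11*-high and *Myh11*-low cells.

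**Figure D1:**
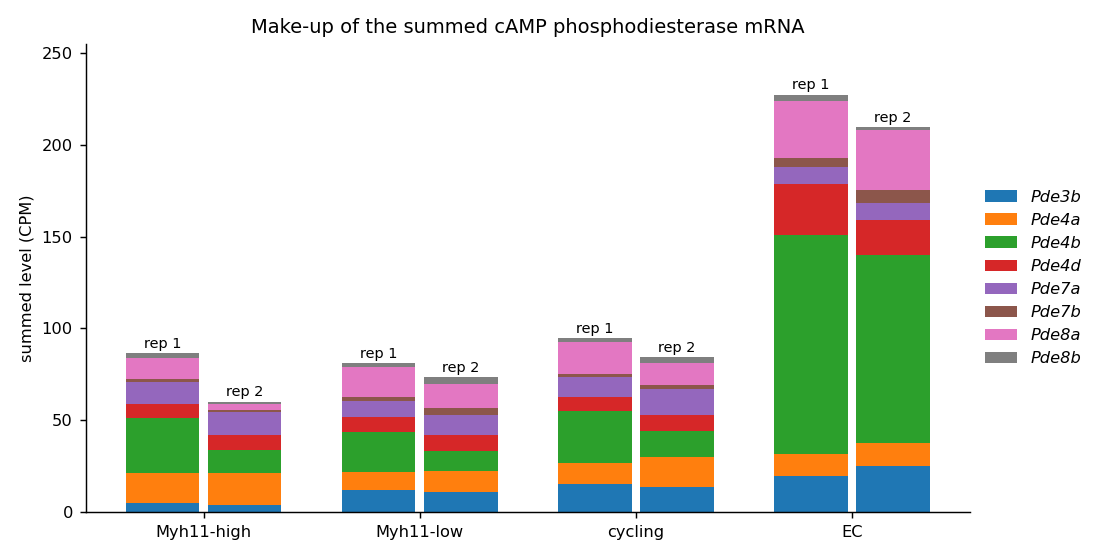
Summed level of the cAMP PDE genes described here, without *Pde3a*, in CPM (y axis) in each cell class (x axis). There is 1 bar per library and 1 color per gene. *Pde4c* had 3 UMIs in all 4 classes together and is not drawn. The EC bars reach 227 and 210 CPM, and most of their excess is *Pde4b*.

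Among single cells, at least 1 UMI of any of the 9 genes was found in 91.2% and 80.9% of ECs, 87.4% and 76.7% of cycling cells, 81.8% and 63.2% of *Myh11*-high cells, and 71.6% and 62.0% of *Myh11*-low cells. These shares follow the depth of the cells as well as the level. The median SMC of replicate 2 held 1 member UMI in each class.

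**Figure D2:**
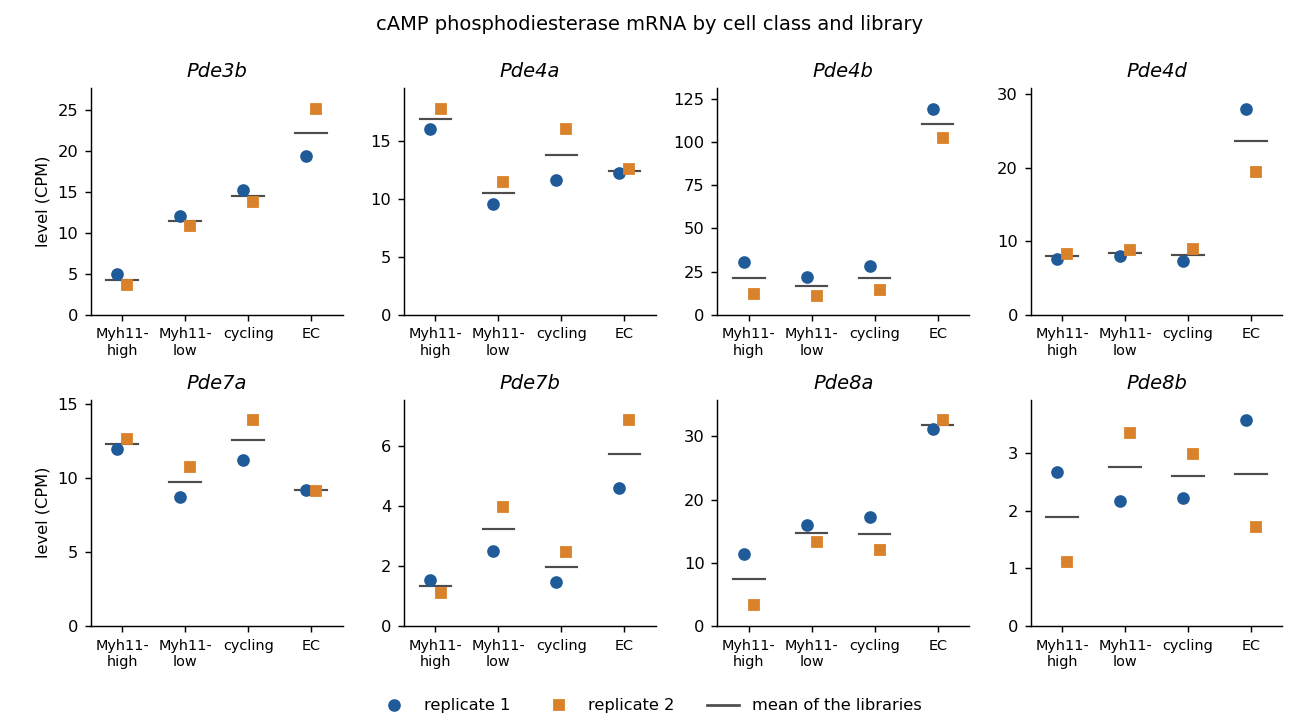
Level in CPM (y axes start at 0 and differ between panels) of 8 cAMP PDE genes in the 4 cell classes, with 1 point per library and a line at the mean of both. *Pde4b*, *Pde4d*, *Pde3b*, *Pde7b* and *Pde8a* have both EC points above all points of the SMC classes.

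ECs had more of 5 of the 9 genes than any SMC class in either library. *Pde4b*, the PDE4 gene best known from inflammatory cells, was higher than the mean of the 3 SMC classes by 4.92-fold, *Pde4d* by 2.54-fold, and *Pde3b* by 2.17-fold. These 3 of the 8 tested members passed the test, where 11.6% of all 14095 genes tested were called higher and 23.6% in either direction. *Pde7b* and *Pde8a* did not pass it, but passed with the library as a block in the fit, where 36.7% of all genes were called. *Pde4a* and *Pde7a* were not higher in ECs.

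*Pde4b* was found at 119 and 102 CPM in the ECs of replicates 1 and 2 (111 ± 12.0 CPM, SD, n = 2), on 234 and 179 UMIs. In *Myh11*-high cells it was at 30.4 and 12.3 CPM, in *Myh11*-low cells at 22.1 and 10.9 CPM, and in cycling cells at 28.5 and 14.2 CPM. Both EC sums lay above all 6 SMC sums, and the SMC classes overlapped each other. The log2 fold change of ECs against the mean of the SMC classes was 2.30 (SE 0.42, adjusted p = 0.00955, quasi-likelihood F test of edgeR over 14095 genes). Within replicate 1 ECs had 4.46 times the SMC level and within replicate 2 8.25 times, since replicate 1 had more *Pde4b* in its SMCs. The level in replicate 1 was 2.46, 2.04 and 2.00 times that in replicate 2 in *Myh11*-high, *Myh11*-low and cycling cells, and 1.17 times in ECs.

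The share of cells with a *Pde4b* UMI was 72.5% in ECs of replicate 1 (62.8 to 80.9%, exact 95% binomial interval) and 57.4% in those of replicate 2 (48.8 to 65.7%). These intervals hold counting error alone. Thinned to 3000 UMIs per cell, these shares would be 31.6% and 26.9%, against 8.60% and 3.70% in *Myh11*-high cells and 6.30% and 3.30% in *Myh11*-low cells. Free RNA alone would give 2.26% and 0.624% of ECs a *Pde4b* UMI. For comparison, *Pecam1*, which SMCs should lack, had a UMI in 0.758% and 0.698% of *Myh11*-low cells. *Pecam1* is part of the EC rule and of the free RNA estimate, so that this share is no independent check. At least 5 *Pde4b* UMIs were counted in 14.7% and 4.26% of ECs and in 0.541% and 0.0241% of *Myh11*-low cells.

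**Figure D3:**
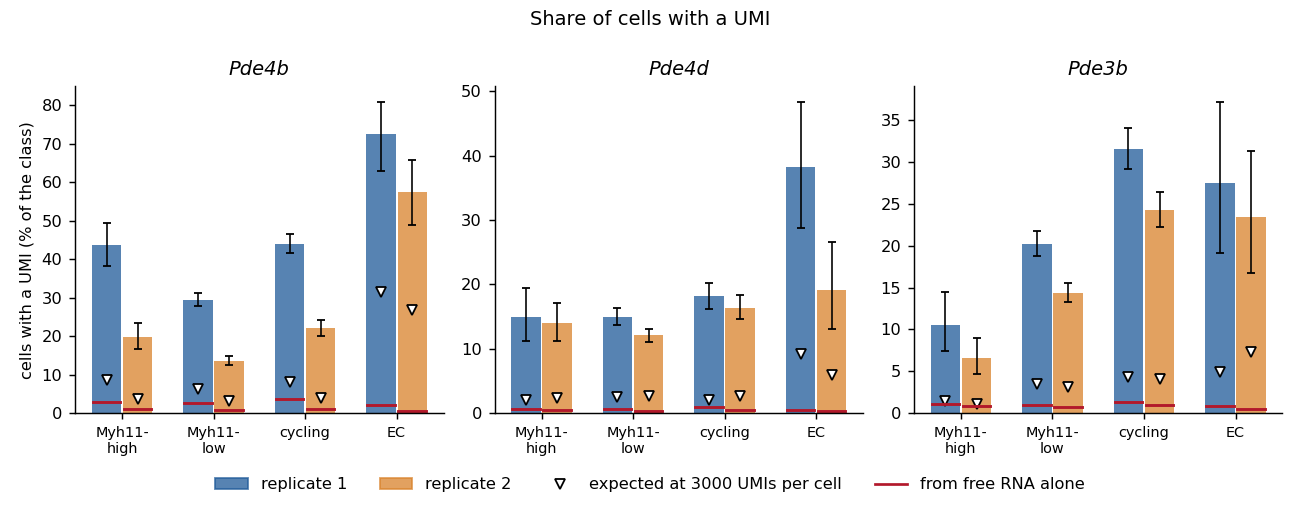
Share of cells with at least 1 UMI (y axes in percent of the class, starting at 0) of *Pde4b*, *Pde4d* and *Pde3b* in each class and library, with exact 95% binomial intervals. Triangles are the shares expected at 3000 UMIs per cell and red lines the shares that free RNA alone would give. In ECs the *Pde4b* bars reach 72.5% and 57.4%.

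*Pde4d* was found at 28.0 and 19.4 CPM in ECs (55 and 34 UMIs). In the SMCs it stayed between 7.29 and 8.99 CPM in all 6 sums, the narrowest range of the tested members. The log2 fold change of ECs was 1.34 (SE 0.18, adjusted p = 0.00306, edgeR), with 1.88 in replicate 1 and 1.16 in replicate 2. A *Pde4d* UMI was seen in 38.2% and 19.1% of ECs, or 9.18% and 5.97% at 3000 UMIs per cell, against 2.45% and 2.62% of *Myh11*-low cells at that depth.

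*Pde3b*, whose product is best known from insulin action in fat and liver, had 19.4 and 25.1 CPM in ECs (38 and 44 UMIs). Cycling cells followed with 15.2 and 13.7 CPM, *Myh11*-low cells with 12.1 and 10.8 CPM, and *Myh11*-high cells were lowest with 4.96 and 3.60 CPM. None of these 4 ranges overlapped. For ECs against the SMC classes the log2 fold change was 1.12 (SE 0.19, adjusted p = 0.00740, edgeR) and the low *Myh11*-high sums enter the mean of this comparison.

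*Pde8a*, a gene of the family with the highest affinity for cAMP, reached 31.1 and 32.6 CPM in ECs. In *Myh11*-high, *Myh11*-low and cycling cells it was at 11.4, 16.0 and 17.2 CPM in replicate 1 and at 3.34, 13.3 and 12.0 CPM in replicate 2. Its log2 fold change was 1.26 (SE 0.42) with an adjusted p of 0.0716 by edgeR, which became 0.0175 once the library was a block in the fit. Replicate 1 alone gave 1.09 (2.12-fold) and replicate 2 alone 2.0 (4.01-fold). *Pde7b* was at 4.59 and 6.85 CPM in ECs on 9 and 12 UMIs, against 1.11 to 3.96 CPM in the SMC sums. Its log2 fold change was 1.29 (SE 0.39, adjusted p = 0.0560 by edgeR, 0.0277 with the block).

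*Pde4a* was at 12.2 and 12.6 CPM in ECs, within the range of the cycling cells (11.6 and 16.0 CPM), and its log2 fold change was -0.32 (adjusted p = 0.291, edgeR). *Pde7a*, which is best known from T cells, was at 9.17 and 9.14 CPM in ECs, within the range of *Myh11*-low cells (8.71 and 10.7 CPM), and its log2 fold change was -0.52 (adjusted p = 0.0905, edgeR). *Pde8b* rested on 7 and 3 UMIs in ECs (3.57 and 1.71 CPM), a range that overlapped those of all 3 SMC classes. *Pde4c* had no UMI in ECs, which allows up to 1.53 and 1.71 CPM.

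Of the 9 members 8 passed the filter on low counts, and 0 of these were called lower in ECs by edgeR or DESeq2, where edgeR called 12% of all genes lower. At an unadjusted p under 0.05 (edgeR) *Pde7a* was the 1 member with a lower level. In either direction 6 of the 8 members were under it, and 5260 of all 14095 genes. *Pde4c* did not pass the filter. The median log2 fold change of the 8 members was 1.19, and that of all genes -0.08. Without the 19 and 21 ECs that also met the cycling rule, 3 members were called, where 3851 of 13995 genes were. *Pde3b* then had a log2 fold change of 0.80 (adjusted p = 0.0288, edgeR), *Pde4b* of 2.44 and *Pde4d* of 1.51. That of *Pde8b* moved to -1.80 and was not called. With all ECs and the block, 5 members were called (adding *Pde7b* and *Pde8a*), where 36.7% of all genes were called. The EC sums held *Myh11* at 51.0 and 19.4 CPM (644 and 621 CPM in *Myh11*-high cells), and the part of SMC RNA in the EC values was not tested.

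**Figure D4:**
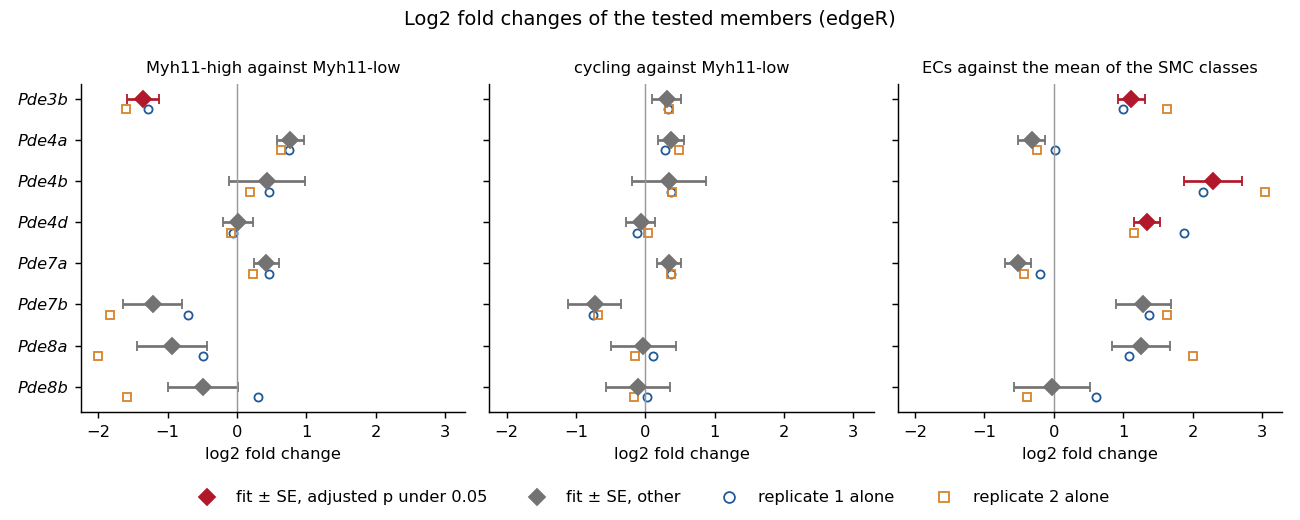
Log2 fold changes (x axes) of the 8 tested members in the 3 comparisons. Diamonds with bars are the fit with its SE (n = 2 libraries per class), red where the adjusted p is under 0.05, and open symbols are the values of a single library. *Pde3b* is lower in *Myh11*-high cells, no diamond is red for cycling cells, and *Pde3b*, *Pde4b* and *Pde4d* are red for ECs.

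Without the library as a block, *Pde3b* was the only tested member called between *Myh11*-high and *Myh11*-low SMCs. It was lower in *Myh11*-high cells, where 0.873% of all genes were called lower and 3.31% in either direction. *Pde4a* and *Pde7a* had higher levels there in both libraries, and *Pde7b* and *Pde8a* had lower levels in both. These 4 did not pass the test of this fit. With the library as a block, *Pde4a*, *Pde7a* and *Pde7b* passed and *Pde8a* did not, where 22.8% of all genes were called. *Pde4b* and *Pde4d* did not pass in either fit. Between the classes they differed by less than between the libraries, a difference that the block takes out.

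*Pde3b* was at 4.96 and 3.60 CPM in *Myh11*-high cells (39 and 42 UMIs) and at 12.1 and 10.8 CPM in *Myh11*-low cells. Its log2 fold change was -1.35 (SE 0.23, adjusted p = 0.0326, edgeR), that is 2.56-fold lower in *Myh11*-high cells. The libraries alone gave -1.29 and -1.59. A *Pde3b* UMI was found in 10.5% and 6.62% of *Myh11*-high cells, where free RNA alone would give 1.13% and 0.864%. At 3000 UMIs per cell the shares would be 1.43% and 1.07%, against 3.47% and 3.08% in *Myh11*-low cells. The call was lost when each cell was thinned to 3000 UMIs (log2 fold change -1.10, adjusted p = 0.112) and when cycling cells were kept in both classes (-0.86, adjusted p = 0.0988), and it held in the other 10 of 12 alternatives. Adjusted p ranged from 5.75e-05 to 0.112 over these 12.

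*Pde4a* was at 16.0 and 17.7 CPM in *Myh11*-high cells and at 9.54 and 11.4 CPM in *Myh11*-low cells. These ranges do not overlap, and the log2 fold change was 0.77 (SE 0.20, adjusted p = 0.0938 by edgeR, 0.00555 with the block). In single cells, a *Pde4a* UMI was found in 31.3% and 28.9% of *Myh11*-high cells and in 17.3% and 16.0% of *Myh11*-low cells. *Pde7a* was at 11.9 and 12.6 CPM in *Myh11*-high cells and at 8.71 and 10.7 CPM in *Myh11*-low cells, with a log2 fold change of 0.42 (SE 0.18, adjusted p = 0.286 by edgeR, 0.0465 with the block). The antisense overlap of *Pde7a* was not resolved, since the strand setting of the counting is not given in the sources used here.

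*Pde8a* was at 11.4 CPM in the *Myh11*-high cells of replicate 1 and at 3.34 CPM in those of replicate 2, a 3.42-fold difference between the libraries on 90 and 39 UMIs. In *Myh11*-low cells it was at 16.0 and 13.3 CPM. The log2 fold change was -0.94 (SE 0.50, adjusted p = 0.396 by edgeR, 0.0559 with the block), with -0.48 in replicate 1 and -2.0 in replicate 2. In the *Myh11*-high cells of replicate 2 the expected share at 3000 UMIs was 0.881%, against 3.33% in replicate 1. *Pde7b* was at 1.52 and 1.11 CPM in *Myh11*-high cells on 12 and 13 UMIs, and at 2.48 and 3.96 CPM in *Myh11*-low cells. Its log2 fold change was -1.22 (SE 0.43, adjusted p = 0.200 by edgeR, 0.0283 with the block).

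For *Pde4b* the log2 fold change was 0.44 (SE 0.55, adjusted p = 0.757, edgeR), and for *Pde4d* 0.01 (SE 0.22, adjusted p = 0.991, edgeR). With the block *Pde4b* had 0.42 (SE 0.22, adjusted p = 0.212, edgeR), and *Pde4d* 0.01 (SE 0.18, adjusted p = 0.975, edgeR). Within replicates 1 and 2 alone, *Pde4b* gave 0.46 and 0.18, and *Pde4d* -0.06 and -0.08. *Pde8b* was at 2.67 and 1.11 CPM in *Myh11*-high cells and at 2.17 and 3.34 CPM in *Myh11*-low cells, so that the 2 libraries went in opposite directions. *Pde4c* had no UMI in *Myh11*-high cells, which allows up to 0.381 and 0.257 CPM, and 1 UMI per library in *Myh11*-low cells.

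The tested members' median log2 fold change was -0.24, against -0.03 over all genes. With the block, 4 members were called (*Pde3b* and *Pde7b* lower, *Pde4a* and *Pde7a* higher), where 22.8% of all genes were. Macrophage markers also differed between the classes, with 6 markers summing to 11.8 and 4.37 CPM in *Myh11*-high cells, where 3 and 2 of them were at 0, and to 45.2 and 34.9 CPM in *Myh11*-low cells. Without *Myh11*-low cells that held a UMI of *Ptprc*, *Cd68*, *Adgre1*, *Csf1r* or *C1qa*, *Pde3b* was still the called member. Most of the macrophage sum in *Myh11*-low cells was *Lyz2* (32.7 and 26.4 CPM), and without the 566 and 565 *Myh11*-low cells that held a UMI of these 5 genes or of *Lyz2* the log2 fold change of *Pde3b* was -1.37 (adjusted p = 0.0320, edgeR).

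The levels were also followed along the *Myh11* rate of non-cycling SMCs, in 4 bins from cells without *Myh11* to cells with more than 5 *Myh11* UMIs per 10000 UMIs. *Pde3b* went from 12.6 to 9.42, 7.93 and 2.99 CPM in replicate 1, and from 11.0 to 8.48, 3.45 and 3.39 CPM in replicate 2. *Pde4a* went the other way, from 9.43 to 16.0 CPM in replicate 1 and from 11.3 to 19.8 CPM in replicate 2, with each bin above the one before. In replicate 1 *Pde4a* was the higher gene of this pair in every bin with *Myh11*, and in replicate 2 in every bin, if barely in cells without *Myh11*.

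*Pde8a* held its level over the first 3 bins in replicate 1 (15.9, 16.1 and 17.2 CPM) and was at 6.73 CPM in the top bin. In replicate 2 it was lower in each further bin, from 13.4 to 2.71 CPM. *Pde7b* was at 2.62 and 3.99 CPM without *Myh11* and at 0.499 and 0.508 CPM in the top bin, on 2 and 3 UMIs. *Pde4d* was at 7.92 and 8.74 CPM in the first bin and at 6.23 and 7.28 CPM in the last.

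**Figure D5:**
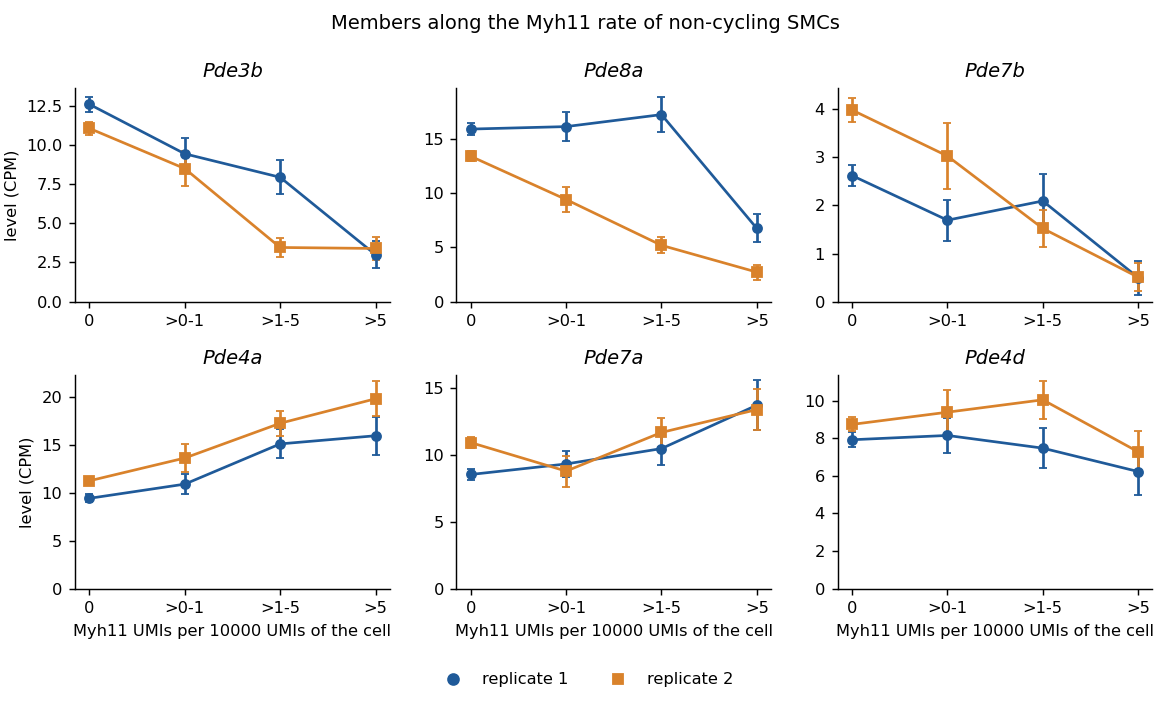
Level in CPM (y axes start at 0) of 6 members in bins of *Myh11* UMIs per 10000 UMIs of the cell (x axes), in non-cycling SMCs of each library. Bars are the counting error (square root of the UMIs) and cover no variation between cultures. In both libraries the top bin holds the lowest *Pde3b* level and the highest *Pde4a* level of the 4 bins.

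No cAMP PDE was called between cycling and *Myh11*-low cells. None of the 8 tested members passed the edgeR test, where 5.12% of all genes were called. By edgeR 0 had an unadjusted p under 0.05, where 2178 of all 14095 genes did. DESeq2 called 0 members, where 1261 of all genes were called. With the block 0 members were called, where 21.9% of all genes were. Of the 8 members 3 then had an unadjusted p under 0.05 by edgeR, where 5046 of all 14095 genes did, a similar share. *Pde3b* was at 15.2 and 13.7 CPM in cycling cells, above both *Myh11*-low sums, with a log2 fold change of 0.31 (SE 0.21, adjusted p = 0.587, edgeR). *Pde7a* was at 11.2 and 13.9 CPM (log2 fold change 0.34, SE 0.17, adjusted p = 0.437, edgeR), and *Pde4a* at 11.6 and 16.0 CPM (0.37, SE 0.19, adjusted p = 0.454). Cycling cells were taken at any *Myh11* level, and 160 and 305 of them held at least 5 *Myh11* UMIs. With only cycling cells of at most 1 *Myh11* UMI, the log2 fold change was 0.43 for *Pde3b*, 0.32 for *Pde7a* and 0.11 for *Pde4a*. In that setting 0 members were called, where 693 of 13700 genes were. *Pde7b* was the member with the lowest ratio, at 1.48 and 2.48 CPM (log2 fold change -0.73, SE 0.39, adjusted p = 0.457, edgeR). *Pde8a*, *Pde8b*, *Pde4b* and *Pde4d* had log2 fold changes between -0.11 and 0.34. The higher shares of cycling cells with a UMI, such as 44.1% and 22.0% for *Pde4b* against 29.4% and 13.7% in *Myh11*-low cells, stood beside a higher depth of these cells, and at 3000 UMIs they would be 8.01% and 4.02% against 6.30% and 3.30%.

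Other genes of the cAMP pathway and the other PDE genes were taken as 8 lists with 78 genes, of which 69 were tested. The list of other PDE genes held 15 of these, cGMP-specific ones among them. The lists were chosen with earlier results of these data known, and none was tested as a set. In *Myh11*-high against *Myh11*-low cells 9 were higher and 0 lower by edgeR, where 343 of all 14095 genes were called higher. These 9 are 13% of those tested, against 3.31% of all genes called in either direction. At an unadjusted p under 0.05 (edgeR) there were 14 higher and 2 lower, where 2542 of all 14095 genes were under it in either direction. DESeq2 called 11 higher and 0 lower, with 1316 of all 14095 genes called. *Adcy5*, an adenylyl cyclase, was at 30.0 and 48.0 CPM against 5.55 and 3.55 CPM (log2 fold change 3.18, SE 0.50, adjusted p = 0.0269, edgeR), and *Gnai1*, an inhibitory G protein subunit, had a log2 fold change of 1.57 (adjusted p = 0.0134). Among 11 tested A-kinase anchors, which hold PKA and often PDE4 at one place, *Akap5* (4.66) and *Akap6* (3.17) were higher. *Pde4dip* (myomegalin), which binds PDE4D, was at 76.5 and 70.1 CPM against 34.6 and 33.7 CPM (1.18, SE 0.12, adjusted p = 0.00857, edgeR), while *Pde4d* itself gave 0.01. The Popeye proteins *Bves* and *Popdc2*, which bind cAMP, had log2 fold changes of 3.58 and 2.87, and *Prkar2a*, a regulatory subunit of PKA, 0.74. *Pde6h*, a subunit of the cone PDE, was higher at 5.08 and 7.45 CPM.

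In cycling cells *Prkar2a* alone of the 69 was called, or 1.45%, against 5.12% of all genes (log2 fold change 0.66, SE 0.13, adjusted p = 0.0381, edgeR).

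In ECs 8 of the 69 were higher and 11 lower, or 27.5% in either direction, against 23.6% of all genes. *Adcy4* was at 62.7 and 86.2 CPM against at most 2.97 CPM in SMC sums (log2 fold change 5.00, SE 0.23, adjusted p = 3.25e-05, edgeR). The EPAC genes *Rapgef3* (2.01, adjusted p = 0.0208, edgeR) and *Rapgef4* were both higher, the latter at 4.08 and 8.0 CPM against at most 0.188 CPM. *Crem*, a CREB family gene that cAMP itself induces, rose by 2.22 (SE 0.22) to 37.2 and 61.7 CPM, and *Arrb1*, a beta-arrestin that brings PDE4D to receptors, by 2.37 (SE 0.22). Of the 9 PKA subunits and inhibitors 1 was higher and 4 lower, among them *Prkaca* (-0.95) and the inhibitor gene *Pkia* (-1.74). *Pde4dip* had a log2 fold change of -1.75 (SE 0.13), at 14.8 and 15.4 CPM, and *Gnai1* of -1.84. Of the 10 other PDE genes tested, *Pde2a*, whose product cGMP activates, was found at 3.06 and 2.28 CPM against at most 0.127 CPM in SMC sums, and *Pde9a*, a cGMP-specific PDE gene, at 3.57 and 2.28 CPM against at most 0.171 CPM. *Pde2a*, *Pde9a* and *Rapgef4* were near 0 in every SMC sum and passed the filter on low counts only through ECs. A lower level in ECs could therefore not have been called for them, and they are among the 8 higher genes. *Pde5a*, the cGMP-specific PDE gene known from smooth muscle, was lower in ECs at 18.9 and 26.8 CPM (log2 fold change -2.31, SE 0.20, adjusted p = 0.000433, edgeR). The list of cAMP-inducible genes did not hold *Crem*. Of its 8 tested genes 0 were called in any of the 3 comparisons by edgeR or by DESeq2. In the comparisons of *Myh11*-high cells, cycling cells and ECs, edgeR called 466, 721 and 3324 of all 14095 genes. DESeq2 called 1316, 1261 and 3691 of them. By edgeR 1 of the 8 had an unadjusted p under 0.05, in cycling cells, where 2178 of all 14095 genes did.

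Over the 8 sums, the genes with levels most like those of *Pde4b* on the log2 scale were *G3bp2* (Pearson r = 0.985), *Ecscr* (0.984) and *Pgf* (0.983), out of 8023 genes. For *Pde8a* they were *Smad5* (0.994), *Ppfibp1* (0.989) and *Kat6a* (0.981). These are descriptions over 8 sums of 2 libraries, which share depth and culture within a library.

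Promoter windows of 300 bases around annotated starts (RefSeq, GRCm38.p6) were at hand for 7 of the 9 genes, and not for *Pde3b* and *Pde7a*. They are shown for *Pde4b*, as the most upstream of its 4 windows, and *Pde4d*, the called members that were higher in ECs and have an entry. Capitals mark TGACG on either strand, the core of the cAMP response element.
Pde4b, chr4:102421305-102421604, plus strand: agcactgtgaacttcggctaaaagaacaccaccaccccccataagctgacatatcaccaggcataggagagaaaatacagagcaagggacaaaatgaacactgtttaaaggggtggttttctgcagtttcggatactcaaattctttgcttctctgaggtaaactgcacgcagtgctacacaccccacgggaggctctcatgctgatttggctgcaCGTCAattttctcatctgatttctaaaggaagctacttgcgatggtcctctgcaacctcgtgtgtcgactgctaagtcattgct
Pde4d, chr13:108653927-108654226, plus strand: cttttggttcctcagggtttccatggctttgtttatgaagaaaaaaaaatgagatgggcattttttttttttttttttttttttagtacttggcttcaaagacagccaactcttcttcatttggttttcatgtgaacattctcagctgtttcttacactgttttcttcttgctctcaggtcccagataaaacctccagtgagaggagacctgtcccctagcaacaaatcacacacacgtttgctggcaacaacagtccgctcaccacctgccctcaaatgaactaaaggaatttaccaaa
The *Pde4b* window shown held the core once, the other 3 windows of *Pde4b* did not hold it, and neither did the *Pde4d* window. The core was found in 4 of the 16 windows of the members and in 20.8% of 32851 windows of all genes. The full element TGACGTCA was found in 0 of the 16 and in 1.79% of all, and the AP-1 site TGANTCA in 0 of the 16 and in 7.81% of all. The GC box GGGCGG was in 5 of the 16, against 35.7% of all. The core lies within the full element, so that these counts overlap. Windows of *Pde8b* overlap each other, so that some bases entered the counts of the 16 windows more than once.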

How the data were processed

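The authors aligned the reads with Cell Ranger and deposited raw UMI counts for all barcodes, neither normalized nor filtered for cells. The submitters' notes name Cell Ranger 3.0.2 and mm10, while the file headers give 3.0.2 for replicate 1 and 3.1.0 for replicate 2. Coordinates are from GENCODE M21 of GRCm38, which held 30934 of the 31053 gene identifiers. The 2 libraries differed by more than sampling noise (median chi-square per gene 19.9 over 13204 genes).

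The study's cell filter left 4866 and 6824 cells, with medians of 22234.5 and 16310 UMIs. Classes were assigned in the order endothelial, cycling, *Myh11*-high and *Myh11*-low, and cells with 2 to 4 *Myh11* UMIs entered no comparison. The cutoffs split cells close to them, with 53 and 76 cells at 4 *Myh11* UMIs and 22 and 50 at 5. Doublets were kept, and removing the 5% of cells with the most UMIs was an alternative. UMIs were summed per library and class (8 sums), since cells are not replicates, and tested with edgeR 4.0.16 in R 4.3.3 (quasi-likelihood F test, TMM, filterByExpr, Benjamini-Hochberg over 14095 genes, threshold 0.05). Each SE was obtained by dividing the log2 fold change by √F, and the values of a single library use log2 CPM that was not TMM-scaled. An exact permutation test of 2 against 2 sums cannot go below p = 0.33, so none is given. P-values measure the spread between 2 libraries. Free RNA was 4.70% and 5.67% of UMIs, estimated from the endothelial markers of the EC rule in SMCs and barcodes with 1 to 100 UMIs. Of these markers, *Gja4* was at 2.16 and 4.54 CPM in *Myh11*-high cells, against 0.467 and 0.325 CPM in *Myh11*-low cells. Whether SMCs make *Gja4* themselves was not tested. The estimate counts all of it as free RNA, so that it and the shares from free RNA alone may be too high. Shares at 3000 UMIs are hypergeometric expectations. A count of 0 allows up to 3 counts.

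The classes of a library are cells of 1 culture, which pairs the sums by replicate number. Deviations of same-numbered sums correlated at 0.459 to 0.878 across genes. The fit with the library as a block is given where it changes a call. DESeq2 1.42.0, RLE size factors, no low-count filter, classes by *Myh11* rate, thinned cells, a 10% mitochondrial limit, free RNA subtraction and other class limits were alternatives. In simulated counts, 100 genes were changed 3-fold and another 100 were changed 1.5-fold for each comparison. The 3-fold changes were recovered for 79% of the changed genes in *Myh11*-high against *Myh11*-low cells (13819 genes tested). For cycling cells it was 88% (13798 genes tested) and for ECs 69% (13785 genes tested). The 1.5-fold changes were recovered for 3%, 5% and 3%, with 7.87%, 7% and 7.69% of calls false. Fewer genes were changed than the real fit called in any comparison. The simulated sums had the same dispersion for all genes and, unlike the real sums, no shared deviation of a library. These rates hold for that setting and were not obtained for the members.

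The members, lists and tests were chosen with earlier results of these data known. Named genes are all 9 members, up to 3 called genes per pathway list and comparison with the largest change, markers, and for the 2 highest members the 3 genes most like them with a mean of at least 10 CPM.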

Additional observations from a re-analysis of the deposited data

Results flagged for a closer look

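Cells with 2 to 4 *Myh11* UMIs, 230 in replicate 1 and 306 in replicate 2, entered no comparison, and the cAMP PDEs were found in them too. Their summed level was 83.1 CPM in replicate 1 and 63.4 CPM in replicate 2, with no control cells and on UMI counts above the 3 that a count of 0 allows. *Pde3b* was at 10.5 CPM in these cells of replicate 1 and at 4.38 CPM in those of replicate 2, so that it lay near the *Myh11*-low level in the one library and near the *Myh11*-high level in the other. *Pde8a* was at 16.4 and 4.20 CPM, *Pde4a* at 13.4 and 18.3 CPM, and *Pde4c* had no UMI. Groups of 2 libraries are too small to look for a library that stands apart.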

How the results depend on the processing

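Of the alternative values with both libraries, 225 kept their direction and side of the threshold, 16 passed it in addition, 2 no longer passed it and 18 changed sign. Members called between *Myh11*-high and *Myh11*-low cells numbered 1, and 4 with the library block, 2 with DESeq2, 2 with classes by *Myh11* rate, 0 after thinning and 0 with cycling cells kept. All genes called there numbered 466 of 14095, and 3209 of 14095 with the block and 1316 of 14095 with DESeq2. They numbered 789 of 21051 without a filter, 1190 of 14058 by *Myh11* rate, 371 of 11140 after thinning and 301 of 13226 with cycling cells kept. For cycling cells 721 genes became 3083 with the block, 1261 with DESeq2 and 477 after thinning. For ECs 3 members became 5 with the block, 5 with DESeq2, 5 without a filter and 5 by *Myh11* rate. All genes called for ECs numbered 3324 of 14095, and 5167 of 14095 with the block and 3691 of 14095 with DESeq2. They numbered 3235 of 21051 without a filter, 3428 of 14058 by *Myh11* rate and 1984 of 11140 after thinning. The block changed no other call of a member. The cause of these shifts was not tested. Signs turned at values that were not called. *Pde4d* in *Myh11*-high cells was -0.022 without a filter and -0.022 after thinning, -0.21 by *Myh11* rate, -0.013 without the top 5% of cells, -0.0021 with cycling cells kept and -0.0045 without macrophage UMIs or -0.012 with *Lyz2* among these (alternatives chosen after seeing the data, like the removal of cycling ECs). In cycling cells *Pde3b* was -0.11 after thinning, and with at most 1 *Myh11* UMI *Pde8a* was 0.12 and *Pde8b* 0.034. In ECs *Pde7a* was 0.074 after thinning, and *Pde8b* was 0.018 with the block, 0.028 with DESeq2, 0.029 with RLE, 0.046 without a filter, 0.048 with free RNA subtracted, 0.070 without the top 5% and 0.092 with cycling cells kept. A single library left no residual degrees of freedom and so no test or count of calls. Without either replicate, *Pde8b* in *Myh11*-high cells ranged from -1.58 to 0.30. Shares of cells fell with thinning by construction, and simulated 1.5-fold changes, over genes of all levels, were recovered for at most 5% of the changed genes.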

Other observations

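Within the *Myh11*-low cells, the members were also read in cells with transcripts of a second gene, 1 at a time. Cells with at least 2 UMIs of *Il1rn*, the interleukin-1 receptor antagonist (397 cells in replicate 1 and 99 in replicate 2), had *Pde8a* at 25.0 and 24.6 CPM, against 14.4 and 13.1 CPM in the other *Myh11*-low cells. These *Pde8a* levels with *Il1rn* rested on 220 and 34 UMIs. *Pde8a* was not alone in this, since *Pde4b*, *Pde4d* and *Pde7a* were higher with *Il1rn* in both libraries too. *Pde7b* was lower in both, and *Pde4a* and *Pde8b* did not go one way. The median UMI counts were 19626 and 12974 with *Il1rn* and 19773 and 14604 without. *Pde3b* did not go one way in these cells, with 7.95 CPM against 12.8 CPM in replicate 1 and 15.9 CPM against 10.7 CPM in replicate 2.

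*Pde4b* and *Pde4d* were lower in *Myh11*-low cells with *Gpnmb*, a lysosomal glycoprotein gene, and also in those with *Fgf18*, a fibroblast growth factor gene, in both libraries. They were not alone in this, since *Pde3b* and *Pde8b* were lower there too. *Pde7a*, *Pde7b* and *Pde8a* were lower with *Fgf18* in both libraries, while *Pde4a* did not go one way. With *Gpnmb*, *Pde7b* was higher in both libraries, and *Pde4a*, *Pde7a* and *Pde8a* did not go one way. With at least 3 UMIs of *Gpnmb* (264 and 1881 cells), *Pde4b* was at 16.0 against 23.1 CPM in replicate 1 and at 8.28 against 13.9 CPM in replicate 2, and *Pde4d* at 5.89 against 8.30 CPM and at 7.65 against 10.1 CPM. With at least 2 UMIs of *Fgf18* (834 and 461 cells), *Pde4b* was at 18.8 against 24.0 CPM and at 7.19 against 11.4 CPM, and *Pde4d* at 6.67 against 8.69 CPM and at 5.57 against 9.26 CPM. For *Pde4b* the difference between the libraries was larger than that between the cells with and without either gene. The median UMI counts were 28393 and 17425 with *Gpnmb* against 19097 and 12593 without, and 22710 and 16836 with *Fgf18* against 18470 and 14285 without.

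*Pde4b* was at 22.6 against 21.8 CPM and at 10.4 against 11.1 CPM in cells with and without at least 3 UMIs of *Pdgfra*, and at 23.2 against 21.8 CPM and at 11.0 against 10.8 CPM with and without at least 2 UMIs of *Sox9*. The cells with *Acan*, a cartilage proteoglycan gene, were 17 and 13 and too few to read these levels. All of these are values of 2 libraries with no test.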
